A study of Homo sapiens with 24 samples.

Results

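The heat shock protein and DNAJ chaperone genes were taken from the deposited table by symbol, as the single-symbol entries named HSPA, HSPB, HSPD1, HSPE1, HSPH1, HSP90 or DNAJA, DNAJB and DNAJC with their numbers. Of 55 entries whose symbol matched, 53 reached at least 10 scaled fragments in at least 3 of 24 libraries, out of 20162 entries that reached this minimum and 25541 in the table. Scaled fragments are the authors' estimated fragments per gene, put on a common scale over all 24 libraries. DNAJC12, with 1 library at the minimum, and HSPB9, with 0, fell outside. HSPB7 with 4 libraries at the minimum, and HSPA6 and DNAJB7 with 5 each, lay just inside.

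The libraries were made from total RNA of 2 variants of T47D, a luminal breast cancer cell line. T47D-co carries progesterone receptor, and T47D-Y is the variant without it. Each line received interferon-alpha (IFN, 20 IU/ml) or water for 18 h, followed by 6 h of the synthetic progestin R5020 (10 nM) or its solvent EtOH. The 8 groups were thus T47D-Y and T47D-co, each with EtOH and water, R5020 and water, EtOH and IFN, or R5020 and IFN, with 3 replicates apiece. A line is 1 cell culture variant, so a difference between the lines is a difference between those variants. The replicates are described as biological, with no more said of their cultures, and p-values measure the spread between these libraries. In RNA from many cells, fewer cells expressing a gene and less RNA per cell cannot be told apart.

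PGR, the progesterone receptor gene, ranged from 11814 to 27973 scaled fragments in the 12 T47D-co libraries and from 418.5 to 719 in the 12 T47D-Y libraries, low but not 0. FKBP5, a progestin and glucocorticoid target, lay at 2059, 2065 and 2107 in T47D-co with EtOH and water and at 21320, 20967 and 22487 with R5020. In T47D-Y it lay at 1244, 1128 and 1281 with EtOH and at 2170, 2057 and 2094 with R5020, so that line was not without a response to the ligand. MX1, an interferon-induced gene, was at most 310.5 without IFN and at least 1899 with it. Depth ran from 14141314 to 33607497 estimated fragments. The 8 markers of luminal epithelium (KRT8, KRT18, KRT19, EPCAM, CDH1, ESR1, GATA3 and FOXA1) each had at least 1445 scaled fragments in every library. Of the leukocyte markers, PTPRC reached at most 9.22 and CD3E 7.12. Of the endothelial markers, CDH5 reached at most 7.44 and VWF 17.1, with 3 libraries at the minimum for VWF. No values were at hand for the listed markers CD68, CD14, PECAM1, COL1A2, COL3A1, PDGFRB and DCN. COL1A1 of fibroblasts ranged from 154 to 473. Together the 8 luminal genes summed to 97589 to 98546 in T47D-co with EtOH and water and to 67620 to 69908 with R5020; what part this has in the results below was not tested. A set of 4 libraries had 0.942 to 1.07% of fragments on mitochondrial genes, against 3.17 to 4.74% in the remaining ones: T47D-Y with EtOH and water replicate 1, T47D-Y with R5020 and water replicates 1 and 2, and T47D-co with EtOH and water replicate 2.

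Chaperones of the HSP70 family bind unfolded stretches of protein in cycles driven by ATP. DNAJ proteins, also called HSP40, bring clients to HSP70 and start its ATP hydrolysis, and HSPH1 and its relatives HSPA4 and HSPA4L exchange the nucleotide so that the client is let go. HSP90 takes over late folding intermediates, and steroid receptors such as the progesterone receptor are held ready for ligand in complexes that HSP70, a DNAJ protein and HSP90 assemble in turn. Heat shock factor drives many of these genes through repeats of the letters nGAAn, while the endoplasmic reticulum set, HSPA5 (BiP) and HSP90B1 (GRP94) among them, answers to the unfolded protein response through another element.

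Promoter stretches with those elements are shown first, because their genes are described below. Windows of 300 bases, 250 before and 50 after the RefSeq start site on GRCh38.p14, were at hand for 47 of the 53 genes. The heat shock element, searched as GAANNTTCNNGAA on both strands, was found in 7 of the 47 genes (14.9%), against 0.608% of 27305 genes overall. The endoplasmic reticulum stress element, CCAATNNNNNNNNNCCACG on both strands, was found in 2 of them (4.26%), against 0.0916% of all genes. A progestin and glucocorticoid element, GNACANNNTGTNC, was in 0 of the 47 windows and in 0.480% of all genes, and an interferon-stimulated response element, GAAANNGAAA, in 0 of the 47 and in 4.38% of all genes. A match describes the letters of the window and nothing about binding. The stretches with a match upstream of the start are printed 5′ to 3′ on the strand of the gene, with matched letters in capitals (adjoining or overlapping matches merge into 1 run). The 6 heat shock stretches come from HSPA8 (chr11:123062169-123062376, minus strand), HSPD1 (chr2:197500058-197500090, minus), HSPA6 (chr1:161524456-161524488, plus), HSP90AA1 (chr14:102087110-102087142, minus), HSP90AB1 (chr6:44247768-44247853, plus) and DNAJB6 (chr7:157336863-157336895, plus), and the 2 stretches with the endoplasmic reticulum element from HSPA5 (chr9:125241381-125241419, minus) and HSP90B1 (chr12:103930206-103930349, plus).
HSPA8: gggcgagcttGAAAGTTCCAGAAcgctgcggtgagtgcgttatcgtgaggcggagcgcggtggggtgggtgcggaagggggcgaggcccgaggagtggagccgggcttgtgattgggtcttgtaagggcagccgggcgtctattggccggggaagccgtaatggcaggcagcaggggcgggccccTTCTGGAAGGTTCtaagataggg
HSPD1: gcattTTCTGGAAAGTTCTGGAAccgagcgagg
HSPA6: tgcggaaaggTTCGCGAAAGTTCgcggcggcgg
HSP90AA1: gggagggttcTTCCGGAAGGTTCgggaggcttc
HSP90AB1: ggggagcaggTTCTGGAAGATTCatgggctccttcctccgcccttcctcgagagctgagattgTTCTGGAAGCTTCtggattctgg
DNAJB6: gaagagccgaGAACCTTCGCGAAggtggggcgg
HSPA5: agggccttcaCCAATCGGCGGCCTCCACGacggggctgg
HSP90B1: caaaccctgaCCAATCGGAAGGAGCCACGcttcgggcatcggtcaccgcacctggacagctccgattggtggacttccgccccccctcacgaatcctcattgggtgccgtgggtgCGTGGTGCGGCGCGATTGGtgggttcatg

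In DNAJA1, the remaining gene with a heat shock element, the match GAACTTTCCAGAA began 3 bases after the start site on the plus strand of chromosome 9. HSP90AB1 and HSPA8 carried 2 separate matches each, and HSPD1 carried 2 that overlap. In HSP90B1 the first match reads forward and the second reads as the reverse complement. DNAJB1 and HSPH1, whose response to R5020 is described next, had no match to the strict motif in these windows.

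In T47D-co, R5020 moved most of the chaperone genes, and it moved them in both directions. Without IFN, 41 of 53 passed the test (limma, Benjamini-Hochberg adjusted p under 0.05 over all 20162 entries), 22 of them higher and 19 lower. The background was wide: 56.5% of all entries were called in that comparison, 26.6% higher and 30% lower. With IFN, 42 of 53 were called, 24 higher and 18 lower, against 58.1% of all entries, 27.5% higher and 30.6% lower. The median log2 fold change of the 53 genes was 0.09 without IFN, where the median of all entries was -0.04, and 0.08 with IFN, where that of all entries was -0.05. Of 9 HSP70 genes 7 rose and 2 fell without IFN, and of 18 DNAJC genes 4 rose and 10 fell. Most changes were modest, since 8 of the 22 increases reached 1.5-fold and 2 reached 2-fold, and 6 of the 19 decreases reached 1.5-fold and 2 reached 2-fold.

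**Figure D1:**
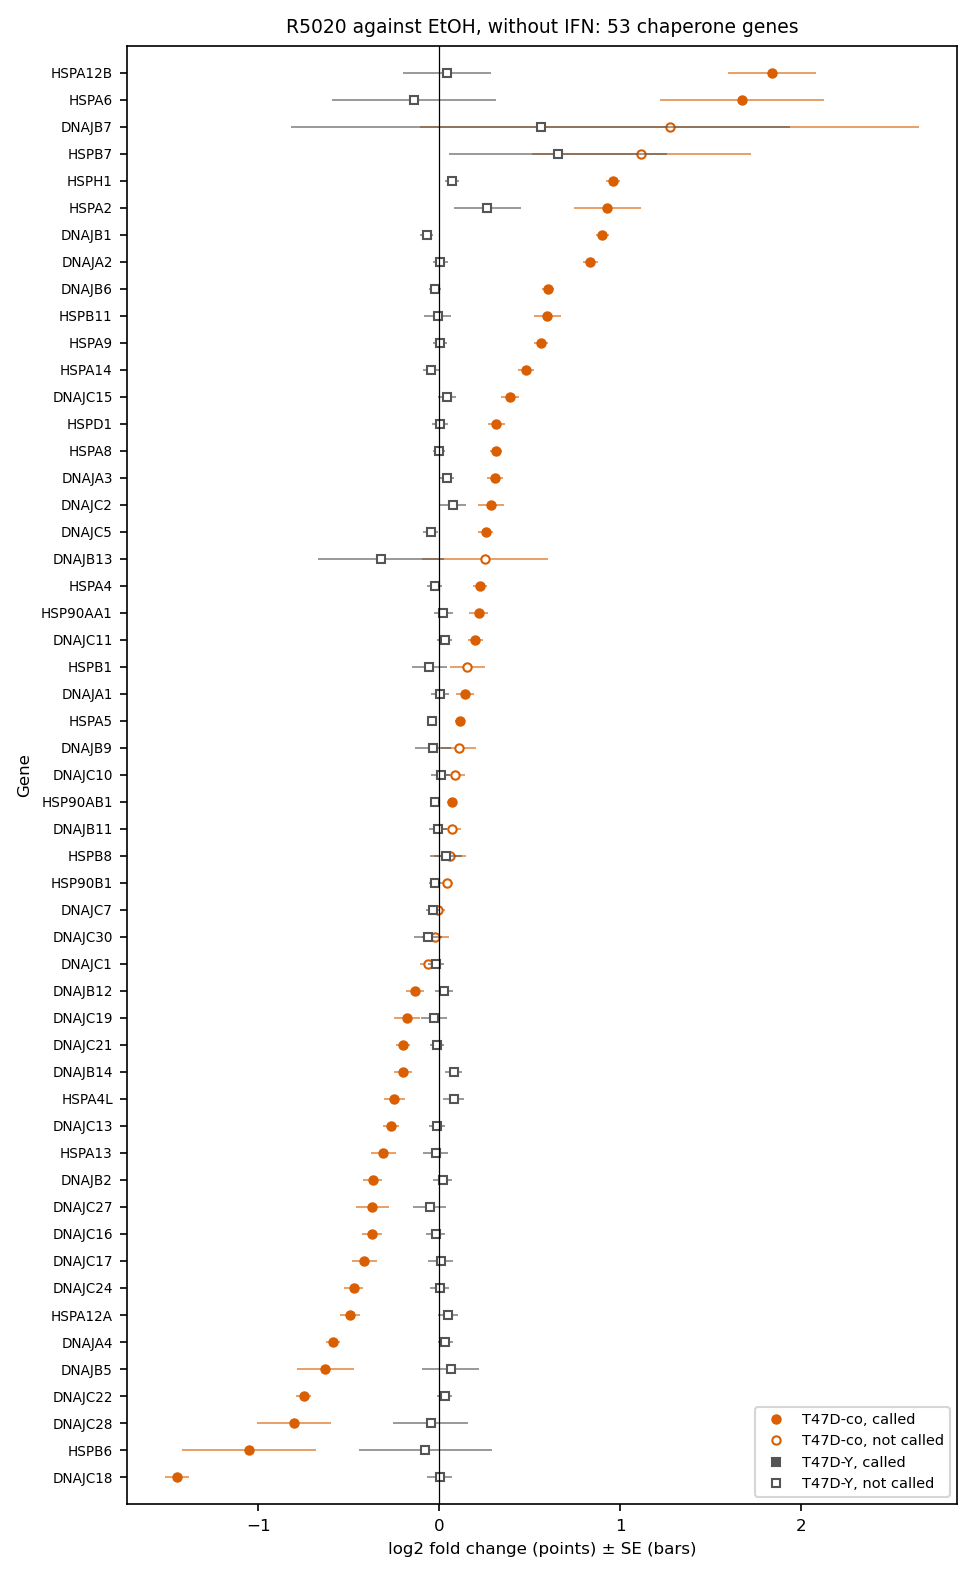
log2 fold change of R5020 against EtOH, without IFN, for each of the 53 chaperone genes (vertical axis, ordered by the value in T47D-co), in T47D-co (orange circles) and T47D-Y (grey squares), with bars of 1 SE and filled symbols for genes that passed the test. In T47D-co 22 genes lie above 0 and 19 below it with filled symbols, and in T47D-Y all 53 symbols are open.

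Among the inducible cytosolic chaperones, HSPH1, the large nucleotide exchange factor of the HSP70 cycle, lay at 1435, 1450 and 1604 scaled fragments with EtOH and water and at 2981, 2803 and 2939 with R5020 and water. With IFN it lay at 1608, 1561 and 1506 without the ligand and at 3121, 2942 and 2902 with it. The groups did not overlap, and the log2 fold change was 0.96 ± 0.04 (SE; limma adjusted p = 5.7e-17) without IFN and 0.94 ± 0.04 with it. DNAJB1, the main heat-inducible HSP40, showed the same separation: 2013, 2104 and 2144 with EtOH and water became 4000, 3920 and 3780 with R5020. In the presence of IFN its values were 2088, 2177 and 2098 against 3548, 3780 and 3639. Its log2 fold change was 0.90 ± 0.04 (adjusted p = 1.42e-16) without IFN and 0.78 ± 0.04 with IFN. DNAJB1 shares its locus with TECR and held 68.5% of the fragments there. The summed locus, TECR included, changed by 0.61 without IFN and 0.52 with it.

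HSPA8, the constitutive HSC70, lay at 20788, 21502 and 20962 with EtOH and at 27322, 25446 and 25840 with R5020, without IFN. The separation was clear and the change small, 0.31 ± 0.03 on the log2 scale (adjusted p = 4.37e-09). With IFN HSPA8 went from 22333, 21184 and 21566 to 25890, 25780 and 24651, a change of 0.23 ± 0.03 that fell to 0.02 (adjusted p = 0.849) under quantile normalization. Entries named as processed copies of HSPA8 held 7.76% of its fragments, so reads could have been divided between them. HSPA14, a ribosome-linked HSP70, changed by 0.48 ± 0.05 without IFN, and HSPA4, a partner of the HSPH1 type, by 0.22 ± 0.04, while its close relative HSPA4L moved the opposite way, by -0.25 ± 0.06. HSPA12B, a distant HSP70 relative known from endothelium, had the largest log2 fold change among the 53 without IFN on the scale with 1 added, where the lower HSPA6 and, with IFN, HSPB7 are held back more: 25, 25.7 and 28.8 with EtOH and 102, 97.5 and 92.3 with R5020. Its log2 fold change was 1.84 ± 0.24 (adjusted p = 3.8e-07), and 1.66 ± 0.24 with IFN. Its paralog HSPA12A fell, from 525, 493 and 537 to 369, 360 and 373 (-0.49 ± 0.06). HSPA2, known from the testis, went from 53.3, 56.2 and 44.8 to 103, 103 and 90 (0.93 ± 0.19, adjusted p = 0.000125), but it held only 1.12% of the fragments at a locus shared with MTHFD1 and others, which makes its value uncertain. The summed locus changed by 0.20.

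**Figure D2:**
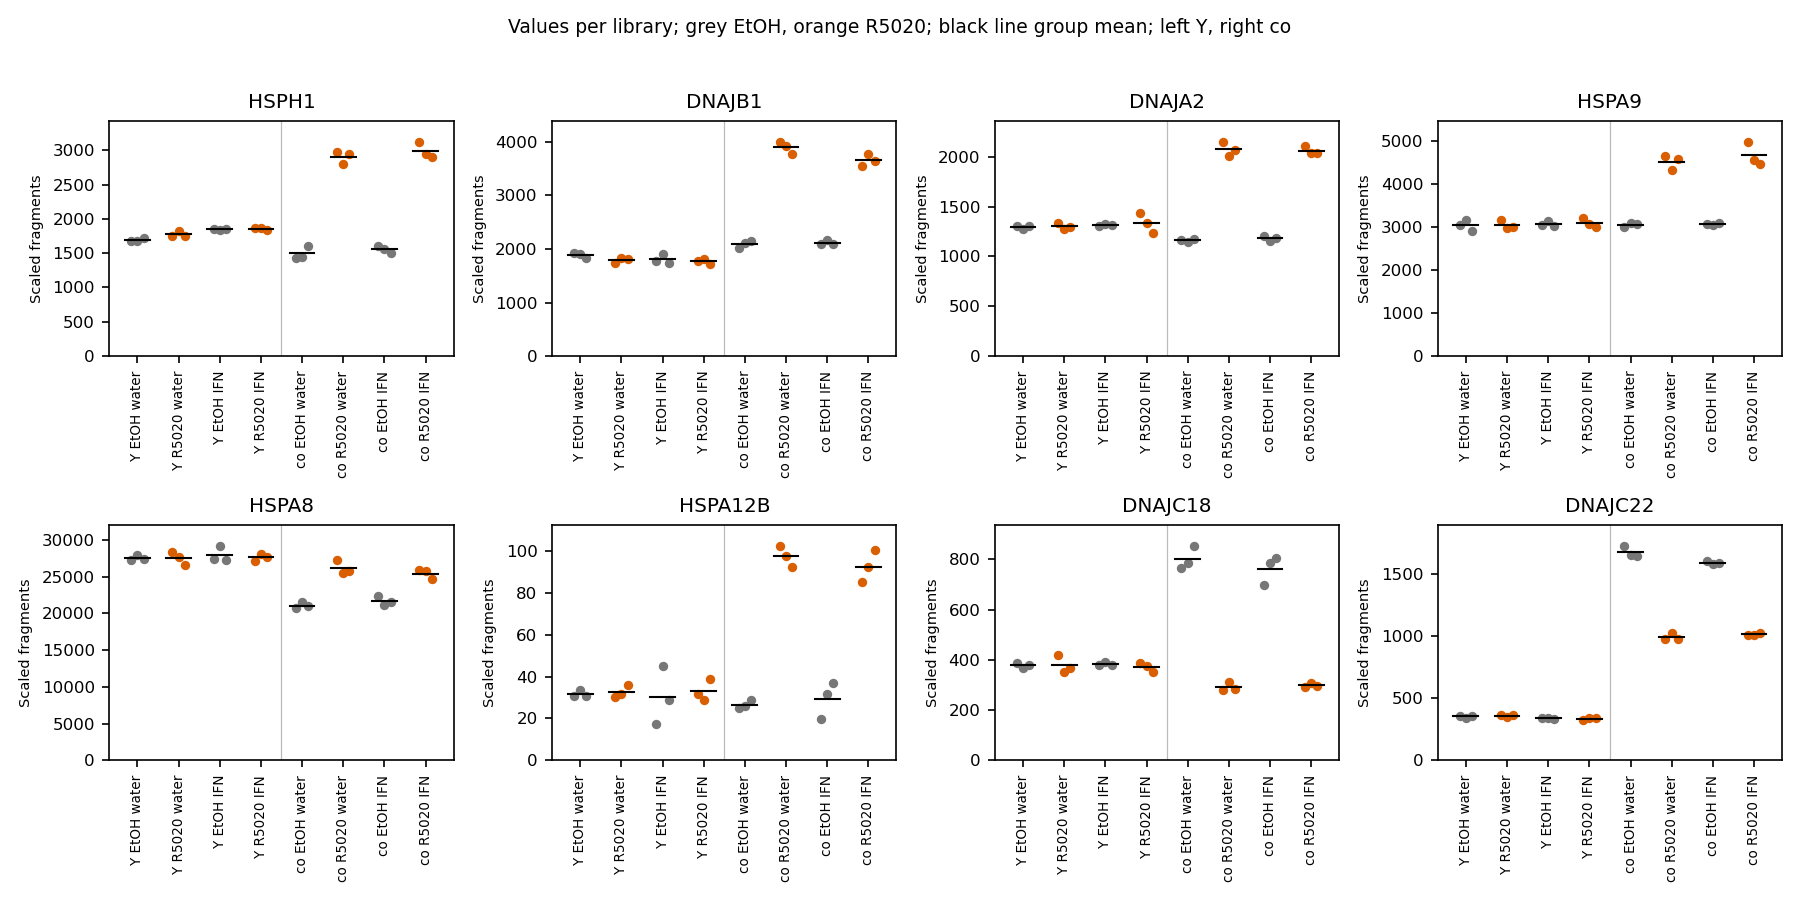
Scaled fragments (linear vertical axis from 0) of 8 chaperone genes in each of the 24 libraries, by group along the horizontal axis (Y, T47D-Y; co, T47D-co), with grey points for EtOH, orange points for R5020 and black lines at the group means. HSPH1 lies at 2803 to 3121 in both T47D-co R5020 groups, HSPA12B at 84.9 to 102, and DNAJC18 and DNAJC22 fall in the same groups.

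HSPA6, the strictly inducible HSP70, was near the lower limit of the data. Its values were 2.89, 2.14 and 3.46 with EtOH and water and 13.8, 12.6 and 7.8 with R5020. With IFN they were 3.31, 3.63 and 5.93 against 15.9, 14.3 and 8.45. Of its 5 libraries at the minimum, 4 were T47D-co libraries given R5020, so its entry into the set depended on the group where it was high. The log2 fold changes were 1.68 ± 0.45 (adjusted p = 0.0027) and 1.38 ± 0.45 (adjusted p = 0.0113). HSPA6 has a near-identical pseudogene, HSPA7, and the assignment of its few fragments is uncertain.

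The HSP90 genes changed little. HSP90AA1, the inducible cytosolic form, lay at 15573, 15981 and 15711 with EtOH and at 18692, 17203 and 19100 with R5020 without IFN (0.22 ± 0.05, adjusted p = 0.00068), and changed by 0.31 ± 0.05 with IFN. Under quantile normalization the first value was 0.10 with an adjusted p of 0.0945. HSP90AB1, the constitutive form, moved by 0.07 ± 0.03 and 0.08 ± 0.03 (adjusted p = 0.0311 and 0.0155), and both values turned negative, to -0.05 and -0.06, under quantile normalization. Without IFN, HSP90AB1 was not called without T47D-co EtOH water replicate 1 (0.153), T47D-co R5020 water replicate 1 (0.137) or T47D-co R5020 water replicate 3 (0.0748). With IFN it was not called without T47D-co EtOH IFN replicate 2 (0.101), T47D-co R5020 IFN replicate 1 (0.0773) or T47D-co R5020 IFN replicate 2 (0.0525). HSP90B1 of the endoplasmic reticulum moved by 0.04 ± 0.03 without IFN (adjusted p = 0.315) and by 0.11 ± 0.03 with IFN (adjusted p = 0.00669; 0.0573 without T47D-co EtOH IFN replicate 2), and its values were -0.16 and -0.19 under quantile normalization. The direction of these last 2 genes thus rested on the scaling. Entries named as copies of HSP90AB1 held 23.1% of its fragments.

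Among DNAJ proteins that serve cytosolic HSP70, DNAJA2 rose from 1160, 1148 and 1176 to 2148, 2005 and 2066 (0.83 ± 0.04, adjusted p = 2.58e-15) and DNAJB6, which holds back aggregation of polyglutamine proteins, from 1784, 1727 and 1718 to 2646, 2671 and 2607 (0.60 ± 0.03). The corresponding values with IFN were 0.80 ± 0.04 and 0.67 ± 0.03. DNAJA1 moved only by 0.14 ± 0.05 (adjusted p = 0.0179), was at an adjusted p of 0.236 with IFN, and was not called without IFN under quantile normalization (0.04, adjusted p = 0.516) or when T47D-co EtOH water replicate 1 (adjusted p = 0.114) or T47D-co R5020 water replicate 1 (adjusted p = 0.0928) was left out. DNAJA4 went down instead, from 1283, 1222 and 1275 to 860, 827 and 828 (-0.59 ± 0.04, adjusted p = 2.12e-12), or by -0.30 with the other entries of its locus. DNAJB5 fell from 111, 109 and 125 to 65.4, 86.6 and 70.2, and DNAJB2, a neuronal J protein that sorts clients to the proteasome, by 0.37 ± 0.05 on the log2 scale. Of 10 DNAJB genes 2 rose and 4 fell, where 26.6% of all entries were higher and 30% lower without IFN.

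Among the mitochondrial members, HSPA9 (mortalin), the HSP70 that pulls precursors into the matrix, lay at 2997, 3091 and 3067 with EtOH and water and at 4648, 4311 and 4567 with R5020. With IFN it lay at 3058, 3035 and 3084 against 4971, 4549 and 4462. The log2 fold changes were 0.56 ± 0.04 (adjusted p = 3.19e-12) and 0.61 ± 0.04. HSPD1, the matrix chaperonin HSP60, went from 2586, 2648 and 2584 to 3364, 3141 and 3231 (0.32 ± 0.04), DNAJA3, a mitochondrial partner of HSPA9, changed by 0.31 ± 0.04, and DNAJC15, of the inner membrane import machinery, by 0.39 ± 0.05. Of the 8 mitochondrial genes 5 rose and 2 fell without IFN, where 26.6% of all entries were higher and 30% lower. Copies named after HSPA9 held 16.2% of its fragments and those named after HSPD1 10.7%. HSPE1, the partner of HSPD1, lies in an entry merged with MOB4 and was not analysed here.

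Of 10 endoplasmic reticulum genes, 1 rose and 4 fell without IFN, where 26.6% of all entries were higher and 30% lower. With IFN 3 rose and 4 fell, near the shares of 27.5% and 30.6% of all entries. The largest decrease was in DNAJC18, a membrane-bound J protein, from 766, 783 and 852 to 281, 313 and 283 without IFN and from 698, 785 and 804 to 293, 306 and 297 with it (-1.45 ± 0.07, adjusted p = 7.77e-16, and -1.35 ± 0.07). HSPA5 moved from 5758, 5813 and 5672 to 6211, 6157 and 6302, a change of 0.11 ± 0.03 (adjusted p = 0.000592). With IFN its change was 0.06 ± 0.03 (adjusted p = 0.0445), with overlapping libraries, and it was not called without T47D-co EtOH IFN replicate 2 (0.199), T47D-co EtOH IFN replicate 3 (0.153), T47D-co R5020 IFN replicate 1 (0.19) or T47D-co R5020 IFN replicate 2 (0.066). Quantile normalization turned both values, to -0.03 and -0.14. DNAJC10, a J protein with disulfide reductase activity, changed by 0.09 ± 0.05 without IFN (adjusted p = 0.166) and by 0.23 ± 0.05 with IFN (adjusted p = 0.000762).

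Other J proteins of the C class also declined. DNAJC22 went from 1724, 1649 and 1647 to 979, 1028 and 978 (-0.75 ± 0.04, adjusted p = 1.66e-14) without IFN and from 1600, 1577 and 1589 to 1006, 1010 and 1028 with it. DNAJC24, which takes part in diphthamide synthesis, changed by -0.47 ± 0.05 and -0.39 ± 0.05. DNAJC28 fell from 48.1, 39.3 and 57.6 to 25.8, 27.7 and 27.3 without IFN (-0.80 ± 0.21), while with IFN it changed by -0.28 ± 0.21 (adjusted p = 0.25). DNAJC2, a ribosome-associated J protein, rose by 0.29 ± 0.07 and 0.51 ± 0.07, but it held 21% of the fragments at its shared locus, and the summed locus changed by 0.06 in both settings (adjusted p = 0.214 and 0.198).

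The small heat shock proteins, which hold unfolded clients without ATP, showed no common direction. HSPB11, a subunit of the intraflagellar transport machinery despite its name, rose from 1227, 1227 and 1216 to 1888, 1789 and 1876 (0.60 ± 0.07, adjusted p = 1.47e-07), and by 0.63 ± 0.07 with IFN. HSPB1 (HSP27) lay at 6867, 6818 and 7119 with EtOH and at 7598, 8457 and 7152 with R5020 (0.15 ± 0.10, adjusted p = 0.185). HSPB8, the partner of BAG3, changed by 0.06 ± 0.09 (adjusted p = 0.611). HSPB6 held only 2.08% of the fragments at its shared locus. It was low, with 41.3, 24.1 and 40.6 against 18.9, 24.4 and 8.78, and its values overlapped although it was called (-1.05 ± 0.37, adjusted p = 0.0174). That call was lost without T47D-co EtOH water replicate 1 (adjusted p = 0.0687), without T47D-co EtOH water replicate 3 (0.065) or without T47D-co R5020 water replicate 3 (0.154). HSPB7, at 2.21, 0.909 and 0 against 3.98, 6.07 and 5.28 with IFN, was called there (1.73 ± 0.60, adjusted p = 0.017) on values under the minimum of 10, and 5 instead of 1 as the pseudocount gave an adjusted p of 0.0505. It was also not called without T47D-co EtOH IFN replicate 3 (0.098) or T47D-co R5020 IFN replicate 2 (0.0519).

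The response to R5020 was compared between libraries with and without IFN, which share no sample but share 1 scaling and 1 estimate of spread. Of all entries, 56.5% were called without IFN and 58.1% with it. The share of all entries called in the same direction in both was not counted. The agreement below is therefore not read as particular to the chaperone genes. Of the 53 genes, 21 were called higher in both, 17 lower in both and 0 in opposite directions. A further 3 were called without IFN only, 4 with IFN only and 8 in neither. When the difference between the responses was tested, 0 of 53 genes passed with limma (1.01% of all entries did), 5 had an unadjusted p under 0.05, and 0 passed with voom weights. For the unadjusted threshold the share of all entries is not given here, so nothing is read from the count of 5. Quantile normalization changed the balance of the calls with IFN from 24 higher and 18 lower to 17 and 21. The median of all entries was then -0.06, and their share of calls under that scaling is not given here.

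In T47D-Y no chaperone gene was called with R5020. The test gave 0 of 53 without IFN, where 0.218% of all entries were called, and 0 of 53 with IFN, where 0.298% were. In both, 0 had an unadjusted p under 0.05 (the share of all entries at that threshold is not given here), and voom weights also gave 0. Among the 45 genes with means of at least 50 in both groups, log2 fold changes ran from -0.07 to 0.08 without IFN and from -0.11 to 0.12 with IFN. For 47 of 53 genes in each setting the 95% interval lay within a 1.5-fold change either way. HSPH1, for example, lay at 1674, 1677 and 1722 with EtOH and water and at 1752, 1820 and 1748 with R5020. DNAJB1 lay at 1929, 1904 and 1832 and at 1741, 1830 and 1822.

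The difference between the lines in the response to R5020 was tested as such. Without IFN, 35 of 53 genes passed, 20 with the higher response in T47D-co and 15 with the lower, where 44.6% of all entries passed, 21.6% with the higher response and 23% with the lower. The difference was 0.97 ± 0.05 for DNAJB1, 0.89 ± 0.06 for HSPH1, 0.83 ± 0.06 for DNAJA2 and -1.45 ± 0.10 for DNAJC18 on the log2 scale. For HSP90B1 it was 0.07 ± 0.05 (adjusted p = 0.28). The split of 20 and 15 became 14 and 16 under quantile normalization, where the median of all entries was -0.04 and their share of calls is not given here.

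Set beside the promoter letters printed above, the 7 genes with a heat shock element were all called higher with R5020 in T47D-co without IFN, at a median log2 fold change of 0.31. Of the 40 genes with a window and no match, 12 were higher, 17 lower and 11 not called, at a median of 0.05. Among all entries, 26.6% were called higher and 30% lower in that comparison. With IFN, 6 of the 7 were called higher, DNAJA1 being the exception, against 27.5% of all entries. Under quantile normalization 4 of the 7 were still called higher without IFN (DNAJB6, HSPA6, HSPA8 and HSPD1), HSP90AA1 and DNAJA1 were not called, and HSP90AB1 turned negative. HSPA6 passed the minimum mostly through the T47D-co libraries given R5020, so its place among the called genes followed from the filter. These counts are a description of few genes, chosen with the results known. The genes with the clearest increases, HSPH1 and DNAJB1, were among the 40.

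Genes that work with the chaperones were taken from lists chosen with earlier results known, and their counts stand against the 56.5% of all entries called in T47D-co without IFN and the 58.1% called with IFN. Of 11 tested cochaperones of HSP70, 8 rose and 1 fell in T47D-co without IFN. GRPEL1, the nucleotide exchange factor of mitochondrial HSPA9, went from a mean of 502 to 1485 (1.56 ± 0.05) and BAG3, the exchange factor that works with HSPB8, from 580.1 to 1288 (1.15 ± 0.06), while BAG4 fell by 0.25 ± 0.05. Of 18 cochaperones of HSP90 and steroid receptors 9 rose and 3 fell. FKBP5 showed 3.38 ± 0.04 and FKBP4, its activating counterpart in receptor complexes, 0.26 ± 0.03, and RPAP3 fell by 0.47 ± 0.06. Of 17 endoplasmic reticulum stress genes 9 rose and 4 fell, ERN1, the IRE1 sensor, by 1.15 ± 0.08 upward and XBP1 by 0.18 ± 0.03 downward. Of 12 chaperonin and prefoldin genes 7 rose and 1 fell, and of 9 mitochondrial quality control genes 5 rose and 1 fell. Among 5 heat shock regulators 1 rose and 1 fell, and HSF1 itself lay at a mean of 1916 with R5020 and 1952 with EtOH (-0.03 ± 0.05, adjusted p = 0.666). With IFN 1 regulator rose and 2 fell, HSF1 among them (-0.20 ± 0.05, adjusted p = 0.000741), and HSF1 was also lower with IFN than with water in T47D-co given R5020 (-0.18 ± 0.05, adjusted p = 0.0175). In T47D-Y the only list gene called with R5020 without IFN was FKBP5 (0.79 ± 0.04). With IFN FKBP5 rose by 0.76 ± 0.04 and BAG2, a cochaperone of HSP70, fell by 0.47 ± 0.08 (adjusted p = 0.00183). In T47D-co with IFN, 8 cochaperones of HSP70 rose and 1 fell, 9 cochaperones of HSP90 rose and 5 fell, 7 endoplasmic reticulum stress genes rose and 4 fell, 6 chaperonin and prefoldin genes rose and 2 fell, and 6 mitochondrial quality control genes rose and 2 fell.

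Few chaperone genes were called with IFN, in T47D-Y near the share of all entries. DNAJA1, HSPA5 and HSP90B1 were each called in both T47D-Y comparisons but in only 1 of the 2 T47D-co comparisons. In T47D-Y without R5020, 3 of 53 were called, all higher, where 4.44% of all entries were called, 2.51% higher and 1.93% lower. In T47D-Y with R5020 it was again 3 higher, against 4.77% (3.08% higher and 1.69% lower). In T47D-co 2 were called without R5020, both higher, against 1% of all entries (0.57% higher and 0.432% lower). With R5020 2 were called, 1 higher and 1 lower, against 11.3% (7.57% higher and 3.69% lower). At most 12 of 53 had an unadjusted p under 0.05 in any of the 4 comparisons. The share of all entries at that unadjusted threshold is not given here, so nothing is read from this count. As read from the values, each IFN comparison sets libraries against each other that had been scaled in separate blocks of 6, and anything else done per block cannot be told apart from IFN.

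DNAJA1, the HSP40 that carries clients of HSPA8, lay at 1434, 1505 and 1464 in T47D-Y with EtOH and water and at 1613, 1755 and 1817 with EtOH and IFN (0.23 ± 0.05, adjusted p = 0.0047). In T47D-co it lay at 1602, 1708 and 1755 and at 2042, 1861 and 1984 (0.22 ± 0.05, adjusted p = 0.0237). HSPA5, the BiP chaperone of the endoplasmic reticulum, went from 7816, 8090 and 7860 to 8633, 8841 and 8540 in T47D-Y (0.13 ± 0.03, adjusted p = 0.00321). In T47D-co it went from 5758, 5813 and 5672 to 6507, 6075 and 6126 (0.12 ± 0.03, adjusted p = 0.0223). HSP90B1 went from 10568, 10974 and 11023 to 11976, 11812 and 12485 in T47D-Y (0.16 ± 0.03, adjusted p = 0.00612). In T47D-co its change of 0.10 ± 0.03 had an adjusted p of 0.208 without R5020, and with R5020 a change of 0.17 ± 0.03 had one of 0.00175. The libraries of the called genes did not overlap between the groups compared.

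With R5020 in T47D-Y, DNAJA1 changed by 0.28 ± 0.05, HSPA5 by 0.15 ± 0.03 and HSP90B1 by 0.16 ± 0.03 under IFN, each called. With R5020 in T47D-co, DNAJA1 (0.15 ± 0.05, adjusted p = 0.0556) and HSPA5 (0.07 ± 0.03, adjusted p = 0.113) were not called, and HSPB1 was lower, from 7598, 8457 and 7152 to 5369, 5342 and 6971 (-0.40 ± 0.10, adjusted p = 0.00913). HSPB1 lost its call without T47D-co R5020 water replicate 2 (adjusted p = 0.0636), T47D-co R5020 IFN replicate 1 (0.0624) or T47D-co R5020 IFN replicate 2 (0.0623). HSPA5 and HSP90B1 are the 2 genes with the endoplasmic reticulum stress element printed above. Whether the element has a part in their change under IFN was not tested. From the endoplasmic reticulum stress list, CALR, PDIA4 and PDIA6, a lectin chaperone and 2 disulfide isomerases, were the 3 genes of 17 called in T47D-Y with IFN and without R5020, each by 0.12 ± 0.03, against 4.44% of all entries. CALR was the 1 called in T47D-co without R5020 (0.12 ± 0.03), against 1%. With R5020 in T47D-Y, 4 were called, CALR (0.17 ± 0.03), PDIA3 (0.19 ± 0.04), PDIA4 (0.14 ± 0.03) and PDIA6 (0.15 ± 0.03), against 4.77% of all entries. With R5020 in T47D-co the list was mixed: the kinase EIF2AK3 (0.19 ± 0.06) and PDIA3 (0.15 ± 0.04) were higher, SDF2L1 (-0.40 ± 0.11), ATF4 (-0.19 ± 0.04) and TRIB3 (-0.15 ± 0.04) were lower, and CALR was not called (0.02 ± 0.03, adjusted p = 0.735), against 11.3% of all entries. Genes of the other lists were called under IFN in both directions. In T47D-Y with R5020, CCT4 (-0.12), BAG1 (-0.20) and BAG2 (-0.28) were lower, and PFDN1 (0.20) and FNIP2 (0.19) were higher. In T47D-co with R5020, CCT4 (-0.09), BAG1 (-0.15), HSPBP1 (-0.21), HSF1 (-0.18) and CLPP (-0.28) were lower. There CHORDC1 (0.14), RPAP3 (0.18), YME1L1 (0.09) and FKBP5 (0.26) were higher.

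**Figure D3:**
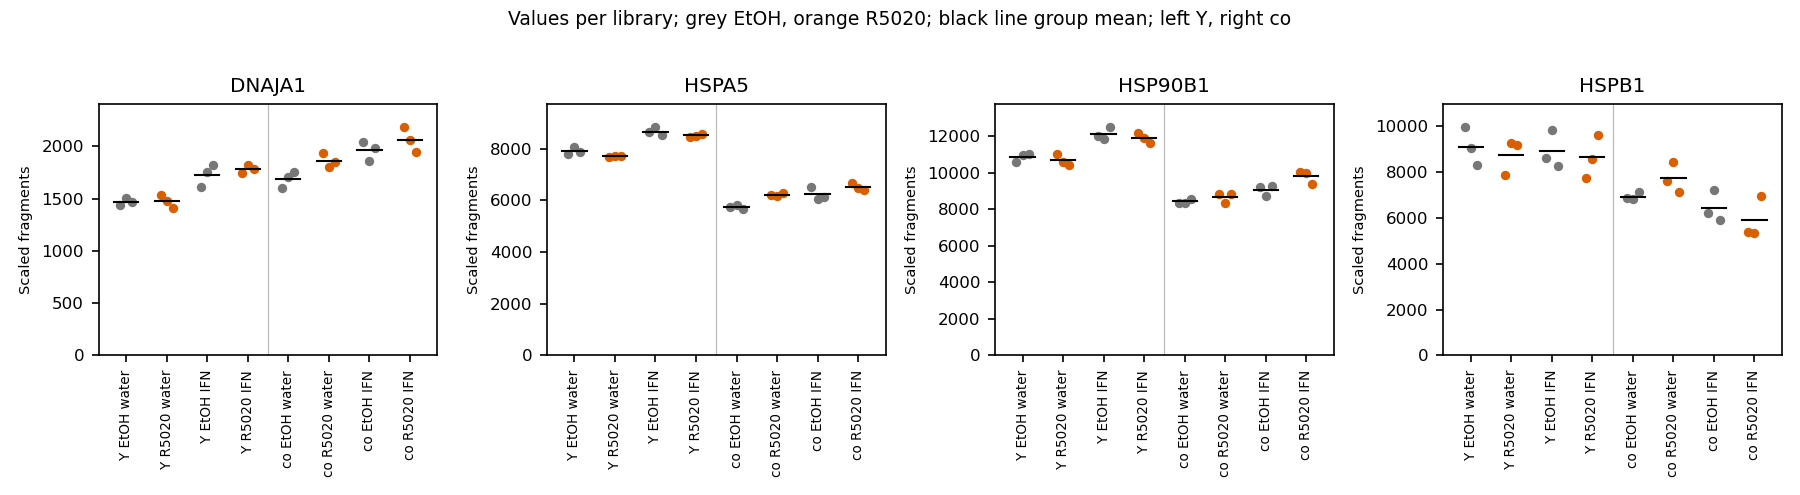
Scaled fragments (linear vertical axis from 0) of DNAJA1, HSPA5, HSP90B1 and HSPB1 in each of the 24 libraries, by group along the horizontal axis (Y, T47D-Y; co, T47D-co), with grey points for EtOH, orange points for R5020 and black lines at the group means. The IFN groups of T47D-Y sit slightly above its water groups for the first 3 genes, and HSPB1 spreads widely among replicates.

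The calls for IFN depended on the scaling and on single libraries. With the deposited scaling kept, all entries shift under IFN, by a median of -0.47 for T47D-Y and of -0.18 for T47D-co. On that scale 0 chaperone genes were called higher without R5020, and 49 were called lower in T47D-Y and 34 in T47D-co. In T47D-co without R5020 the count of 2 became 0 when the 4 libraries of low mitochondrial share were left out or when only the compared groups were fitted. DNAJA1 lost its call there without T47D-co EtOH water replicate 1 (adjusted p = 0.169), T47D-co EtOH water replicate 2 (0.065), T47D-co EtOH IFN replicate 1 (0.156) or T47D-co EtOH IFN replicate 3 (0.0999). HSPA5 lost it without T47D-co EtOH water replicate 1 (0.0693), T47D-co EtOH water replicate 3 (0.138) or T47D-co EtOH IFN replicate 1 (0.197). In T47D-Y, HSP90B1 lost its call without T47D-Y EtOH IFN replicate 3 (0.0511) and without the low mitochondrial libraries (0.0612). The difference between the lines in the response to IFN was called for 0 of 53 genes (limma, 0.377% of all entries), with 2 at an unadjusted p under 0.05 and 0 with voom weights. No share of all entries at the unadjusted threshold is given here.

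Before any treatment the lines differed in 39 of 53 chaperone genes, 24 higher in T47D-co and 15 lower, where 63.1% of all entries were called, 29.7% higher and 33.4% lower. The largest differences were in DNAJC22, at 1724, 1649 and 1647 in T47D-co against 354, 344 and 361 in T47D-Y, and HSPB11, at 1227, 1227 and 1216 against 247, 307 and 248. DNAJC22 was 4.73-fold higher (log2 difference 2.24 ± 0.04, adjusted p = 2.04e-24) and HSPB11 4.59-fold higher (SE of 0.07 on the log2 scale, adjusted p = 9.14e-19). DNAJC18 (1.08 ± 0.07), DNAJB5 (1.01 ± 0.16), HSPA14 (0.83 ± 0.05) and HSPA2 (0.81 ± 0.19) followed. DNAJC22, DNAJC18 and DNAJB5, higher in untreated T47D-co, were lowered there by R5020, whereas HSPB11, HSPA14 and HSPA2 were raised further. HSPB11 held 65.1% of the fragments at a locus shared with LRRC42.

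Among the core chaperones, HSPA8 was lower in T47D-co. It lay at 20788, 21502 and 20962 against 27292, 27996 and 27458 in T47D-Y (-0.39 ± 0.03, adjusted p = 6.15e-11). HSPD1 lay at 2586, 2648 and 2584 against 3682, 4069 and 4023 (-0.59 ± 0.04), and HSPA5 differed by -0.46 ± 0.03. Each of the 3 HSP90 genes was lower: HSP90AA1 by -0.36 ± 0.05, HSP90B1 by -0.37 ± 0.03 and HSP90AB1 by -0.07 ± 0.03. HSP90AB1 was no longer called with TMM factors (adjusted p = 0.15), without T47D-Y EtOH water replicate 2 (0.0779) or without T47D-co EtOH water replicate 1 (0.0941). HSPB1 differed by -0.39 ± 0.10, DNAJC27 by -0.66 ± 0.09, DNAJC30 by -0.51 ± 0.08 and DNAJC15 by -0.44 ± 0.05. DNAJC30 held 25.7% of the fragments at a locus shared with WBSCR22 and STX1A, and DNAJC27 55.7% at one shared with DNAJC27-AS1. HSPA6, at 2.89, 2.14 and 3.46 against 6.61, 10.8 and 5.32, differed by -1.13 ± 0.45 on very few fragments, and it was not called without T47D-Y EtOH water replicate 1 (adjusted p = 0.0525), T47D-Y EtOH water replicate 2 (0.144), T47D-co EtOH water replicate 1 (0.06) or T47D-co EtOH water replicate 2 (0.1). HSPA9, at 2997, 3091 and 3067 against 3033, 3157 and 2910, differed by 0.01 ± 0.04 (adjusted p = 0.848).

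**Figure D4:**
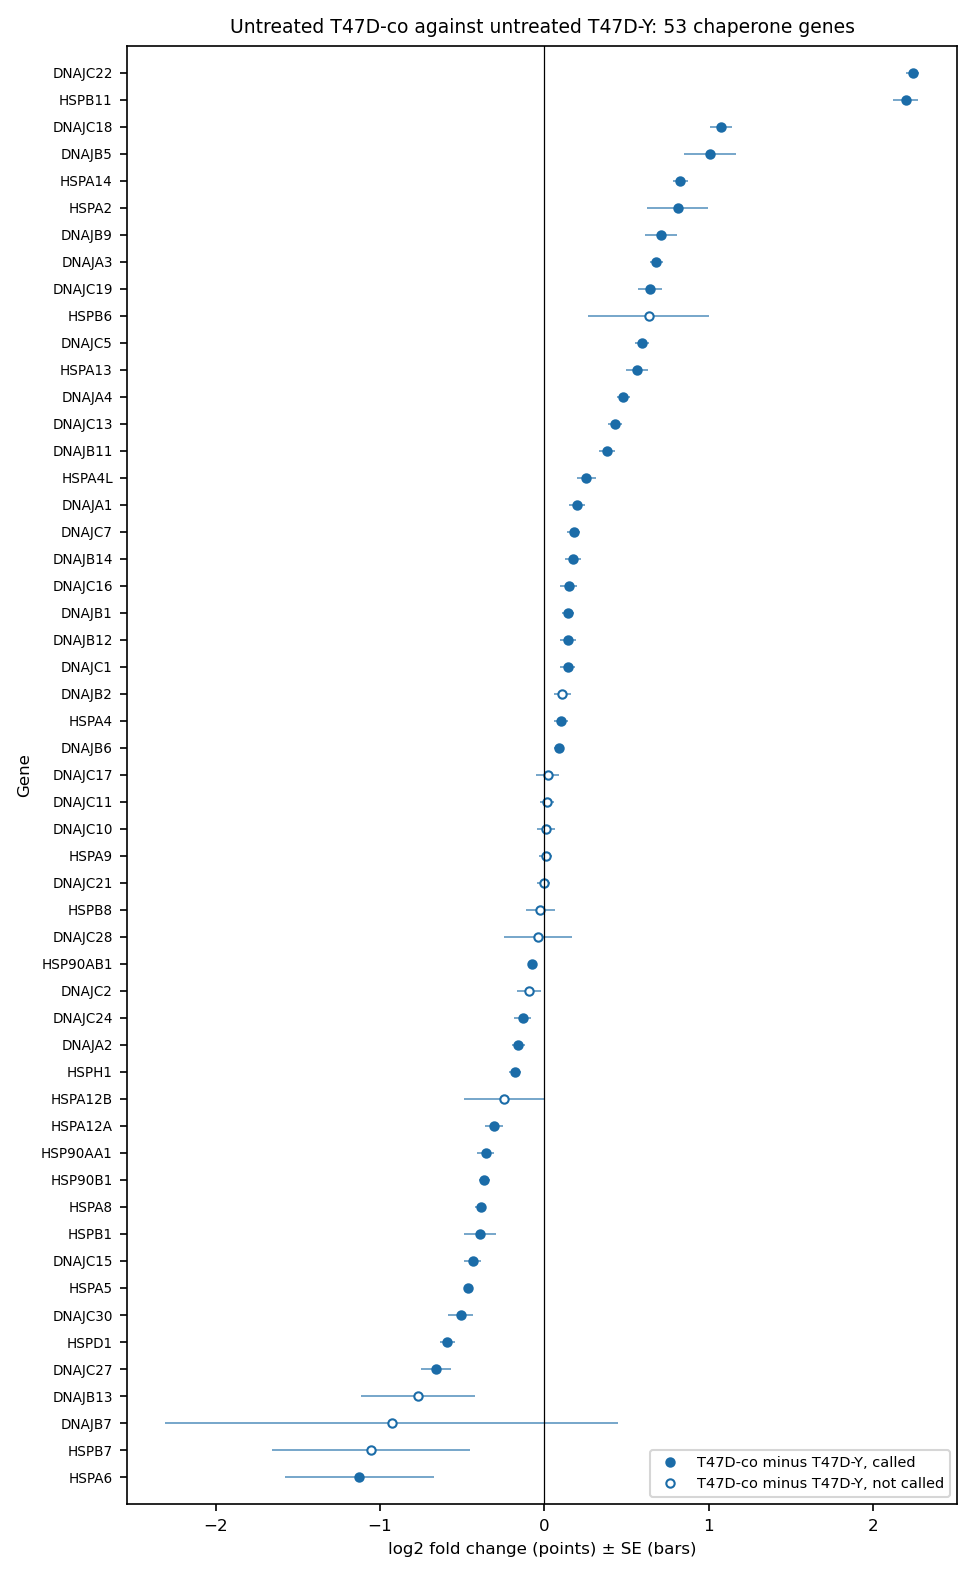
log2 difference between untreated T47D-co and untreated T47D-Y (horizontal axis, points with bars of 1 SE) for each of the 53 chaperone genes (vertical axis, ordered by value), with filled symbols for genes that passed the test. DNAJC22 and HSPB11 stand above 2, and HSPA6, at -1.13 with a wide bar, is the lowest.

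The lines' libraries lay in different blocks of this inferred scaling as well. On the deposited scale the 24 higher and 15 lower genes became 14 and 27, but there the median of all entries was -0.27. HSPH1 was lower in untreated T47D-co (-0.18 ± 0.04) and DNAJB1 higher (0.14 ± 0.04), but DNAJB1 summed with its locus partner TECR differed by 0.01 (adjusted p = 0.78). Replicates of the chaperone genes agreed closely within groups. Among the 45 genes with a mean of at least 50 in every group, the median coefficient of variation over the 8 groups ran from 1.51% in HSPA5 to 9.27% in HSPB1, with a median of 4.02%.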

How the data were processed

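Total RNA was sequenced from 24 libraries in 8 groups of 3, taken from the labels. Per the submitters' processing notes, TopHat2 2.0.12 and Cufflinks 2.2.1 were used with GRCh37 (hg19). The deposited values were treated as a signal whose unit is not given in the sources used here. They behave as fragment estimates that each library's own factor has rescaled. Where an entry had its locus to itself, 97.4 to 98.6% of values were whole steps (tolerance 0.05 of a step), but over all entries only 60.4 to 65.2%, so no count test was run. The values look as if 4 blocks of 6 libraries (line by IFN) had been scaled separately, which is an inference from the values that no source states, and the IFN and line comparisons depend on it. That scaling was removed, and 1 set of median-of-ratios factors was computed across the 24 libraries from 14201 genes with a mean of at least 50. Depth, 14141314 to 33607497 fragments (median 18385832), sets the precision. A total of 1 row without values and 25 entries under 10 repeated symbols were left out.

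Tests used log2(scaled fragments + 1) and limma 3.58.1 (R 4.3.3, parsing in Python 3.11.15), with 8 group means, a variance trend, 16 residual and 8.05 prior degrees of freedom, on 20162 entries with at least 10 in 3 libraries. Fold changes are on that scale, which understates low genes. Calls are two-sided at a Benjamini-Hochberg adjusted p under 0.05. On simulated data with 200 changed genes for R5020 in T47D-co without IFN, 95% were recovered at 1.5-fold and 100% at 2-fold, with 2.99% false calls. The changed genes had means of at least 50, and 1 fixed spread was used for every gene. The 200 were also far fewer than the 56.5% of entries called in the data. These shares therefore do not cover low genes such as HSPA6, HSPB7, HSPB6 and HSPA12B, or variable ones such as HSPB1.

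Members, gene lists and tests were chosen with earlier results of these data known. Named genes were 15 core chaperones and, per comparison, up to 6 members higher and 6 lower that were called with groups not overlapping (4 each for interactions). List genes were up to 4 called per direction. FKBP5, PDIA6, CCT5, CCT8, SIL1, TRAP1, HERPUD1, CANX, ATF6, STUB1, CDH1 and VWF were read from merged entries. These entries held no other protein-coding gene by GENCODE gene type. DNAJB6, HSPA4, HSPA4L, DNAJA3, DNAJC2, DNAJC10, DNAJC24 and HSF1 were added after their values were seen. HSPA1A and HSPA1B were not analysed here. Summing shared loci (25 members; 28 were alone) or processed copies was chosen after seeing the data. Alternatives were other scalings (quantile, trimmed mean of M values (TMM), deposited), pseudocounts, filters, voom weights, a replicate block, only the groups compared, and leaving out libraries. Promoter windows came from RefSeq on GRCh38.p14. No GRCh37 genome was used.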

Additional observations from a re-analysis of the deposited data

Results flagged for a closer look

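For the genes below the response to R5020 without IFN differed between the lines by the interaction test in limma (T47D-co minus T47D-Y, log2 scale). Higher responses in T47D-co were found for HSPA6 (1.81), HSPA12B (1.80), DNAJB1 (0.97), HSPH1 (0.89), DNAJA2 (0.83), HSPA2 (0.66), DNAJB6 (0.62), HSPB11 (0.61), HSPA9 (0.56) and HSPA14 (0.52). Smaller ones were found for DNAJC15 (0.35), HSPD1 (0.31), HSPA8 (0.31), DNAJA3 (0.27), HSPA4 (0.25), HSP90AA1 (0.19), HSPA5 (0.15) and HSP90AB1 (0.09). The call was lost in 8 of 12 fits without 1 library for HSP90AA1 and in 7 of 12 for HSP90AB1. HSPA5 and HSP90AB1 turned negative under quantile normalization, so their direction rested on the scaling. Lower responses were found for DNAJC18 (-1.45), DNAJC22 (-0.78), DNAJC28 (-0.76), DNAJB5 (-0.69), DNAJA4 (-0.62), HSPA12A (-0.54), DNAJC24 (-0.48) and DNAJB2 (-0.39). Of these, HSPA6, HSPA12B, HSPA2 and DNAJC28 rested on low values. HSPA6 passed the minimum mostly through T47D-co libraries given R5020, so its place in this list followed from the filter. Its call was also lost in 4 of 12 fits without 1 library.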

How the results depend on the processing

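The counts of called chaperone genes for R5020 and for the line difference stayed within 1.5 times under every alternative run; leaving out 1 library gave 36 to 42 and 37 to 42 for R5020 in T47D-co without and with IFN, 34 to 38 for the line difference, 30 to 35 for the line by R5020 difference and 0 to 0 for R5020 in T47D-Y and for R5020 by IFN and line by IFN. The IFN counts were less stable. In T47D-co without R5020 the 2 called became 1 with quantile normalization, 0 without the 4 libraries of low mitochondrial share, 0 with only the groups compared and 34 on the deposited scale, and 0 to 2 with 1 library left out. In T47D-co with R5020 the 2 became 1 with quantile normalization and 26 on the deposited scale, and 1 to 6 with 1 library left out. In T47D-Y without R5020 the 3 became 5 with a minimum of 50, with voom weights or with summed loci and 49 on the deposited scale, and 2 to 4 with 1 library left out. In T47D-Y with R5020 the 3 became 5 with quantile normalization and 47 on the deposited scale, and 3 to 4 with 1 library left out. The line by IFN count of 0 became 38 on the deposited scale, whose blocks shift all entries.

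Of 2631 values of single genes under an alternative, 2479 kept direction and call, 116 lost the call, 15 gained one and 21 reversed. With quantile normalization, HSP90AB1, HSP90B1 and HSPA5 reversed for R5020 in T47D-co without IFN (-0.052, -0.158, -0.0344), with IFN (-0.0629, -0.186, -0.14) and in the line by R5020 difference (-0.10, -0.14, -0.01); the cause was not tested. On the deposited scale, IFN in T47D-Y gave DNAJA1 -0.24, HSP90B1 -0.32 and HSPA5 -0.35 without R5020 and -0.21, -0.33 and -0.34 with it, and IFN in T47D-co gave HSPA5 -0.0628 without R5020 and HSP90B1 -0.014 and HSPA5 -0.12 with it; the line difference gave DNAJA1 -0.0333, DNAJB1 -0.0905 and HSPA9 -0.23. The line by R5020 calls of HSPA6, HSPA2, DNAJC28, HSP90AA1 and HSP90AB1 were lost in several fits without 1 library.

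Replicate numbers did not pair the libraries: the correlations of same-numbered deviations lay between -0.0838 and 0.0682 (84 pairs, 0 over 0.1), and 5 of 24 libraries correlated best with their own number. With replicate number as a block, 41 and 41 genes were called for R5020 in T47D-co without and with IFN, 39 for the line difference and 35 for line by R5020, and HSPA5 for R5020 in T47D-co with IFN (0.06) and HSP90AB1 for line by R5020 (0.09) were at adjusted p-values of 0.0502 and 0.0565.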
